A study of Mus musculus with 6 samples.

Results

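The lipids that set myelin apart from other membranes are made by a short chain of enzymes, and 10 genes of that chain were followed here in injured and uninjured mouse optic nerves. The 10 genes were chosen by name, with earlier results of these data known, and all 10 were present among the 25755 genes of the deposited table. They are Ugt8a, Gal3st1 and Fa2h of galactolipid synthesis, Cers2, Sptlc1, Sptlc2 and Degs1 of ceramide synthesis, Sgms1 of sphingomyelin synthesis, Aspa, which releases acetate for lipid synthesis, and Galc of galactolipid breakdown.

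Sphingolipids are built on a sphingoid base. Serine palmitoyltransferase, of which Sptlc1 and Sptlc2 encode subunits, joins serine to a fatty acyl chain, ceramide synthases such as Cers2 add a second fatty acid, and the desaturase Degs1 completes ceramide. In oligodendrocytes, the myelin-forming cells of the optic nerve, Ugt8a adds galactose to ceramide to give galactosylceramide, Fa2h hydroxylates the fatty acid of much of this lipid, and Gal3st1 adds sulfate to give sulfatide. Sgms1 instead turns ceramide into sphingomyelin, a lipid that most cells make, and Galc, the enzyme deficient in Krabbe disease, removes galactose in the lysosome.

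RNA of optic nerves was sequenced from 6 mice, 3 after sham surgery (mice 1, 2 and 3) and 3 after bilateral optic nerve crush, abbreviated ON-CR (mice 4, 5 and 6). Surgery was done at 6 weeks of age and nerves were taken at 12 weeks, which the labels give as 3 months. Both groups carried the same genotype, NF1flox/flox;hGFAP-Cre, in which the human GFAP promoter drives Cre. Cre removes Nf1 from neuroglial progenitors and their progeny, so that nerves of both groups lack Nf1 in such cells. The study reports that ON-CR leads to optic glioma in mice of this genotype, relative to sham surgery. All differences below are thus between uninjured nerves and injured nerves in which glioma may be present. Injury and tumor formation cannot be told apart in any comparison below, and the part of tumor tissue was not tested. The labels name 1 mouse for each library and give no sex, and the study's methods state that both sexes were used. The methods for RNA extraction and qPCR pair mice within a sample, and whether the sequenced libraries were also made from more than 1 mouse is not given in the sources used here, so a value called that of a mouse below is that of a library labelled as 1 mouse.

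Each library held between 17414589 and 23620019 estimated reads on genes, and each ON-CR library was shallower than each sham library. The lowest read number behind any value of the 10 genes was 160, for Gal3st1 in ON-CR mouse 5. Libraries also differed in ways that the 2 groups do not name. Xist, the RNA that coats the inactive X chromosome, stood at a normalized value of 16.7, 2.14 and 30.9 in sham mice 1 to 3 against 2708, 6357 and 6131 in ON-CR mice 4 to 6. The Y-linked Ddx3y was at 1645, 1291 and 1544 in sham nerves and at 976, 4.19 and 0 in ON-CR nerves, so that only ON-CR mouse 4 held both transcripts at high levels. Airway epithelium markers, at a summed value of 567 to 834 in sham mice 1 and 2 and ON-CR mouse 4, reached 8905 in sham mouse 3 and 6316 and 6915 in ON-CR mice 5 and 6. Neuron markers were highest in ON-CR mouse 5 (summed value 16609, against 3442 to 8057 in the other 5 libraries). Plasma cell markers were highest in ON-CR mouse 6, at 98475 against 1217 to 4114. None of the 10 genes lies on a sex chromosome. Xist separates the 2 groups fully, so that a difference of injury and one of sex between the libraries cannot be told apart in any comparison below. The part of the airway, neuron and plasma cell transcripts in the results was not tested.

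The promoters of the genes are shown because the genes of this chain differed to unequal degrees between the same nerves. RefSeq (GRCm38.p6) gave windows for 9 of the 10 genes. The windows below are the 250 bases before the first listed start of Ugt8a and Gal3st1, of the galactolipid branch, beside those of Aspa and Sptlc2, genes with smaller differences. The Aspa window lies inside the span given for that gene below (chromosome 11 from 73304992 to 73329596), which comes from another annotation. Each window is written 5′ to 3′ on the strand of its gene, and capitals mark the letters of 6 motifs searched on both strands.
Ugt8a (chr3:125938653-125938902, minus strand): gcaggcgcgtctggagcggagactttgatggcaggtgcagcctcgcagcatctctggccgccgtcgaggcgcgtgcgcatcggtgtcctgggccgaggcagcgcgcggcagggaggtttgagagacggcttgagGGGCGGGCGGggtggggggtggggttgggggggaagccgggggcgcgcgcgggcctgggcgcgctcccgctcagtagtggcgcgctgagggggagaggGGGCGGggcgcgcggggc
Gal3st1 (chr11:3983386-3983635, plus strand): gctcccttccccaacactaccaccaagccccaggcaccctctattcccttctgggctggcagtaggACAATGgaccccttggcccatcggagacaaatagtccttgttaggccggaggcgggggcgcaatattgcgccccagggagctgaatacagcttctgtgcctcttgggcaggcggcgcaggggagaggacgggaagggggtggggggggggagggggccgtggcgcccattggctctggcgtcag
Aspa (chr11:73324638-73324887, minus strand): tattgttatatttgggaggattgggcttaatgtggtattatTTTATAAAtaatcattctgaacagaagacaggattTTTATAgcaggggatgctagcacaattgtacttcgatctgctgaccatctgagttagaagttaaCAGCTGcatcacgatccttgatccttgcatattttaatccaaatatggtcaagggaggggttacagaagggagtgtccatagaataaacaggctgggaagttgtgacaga
Sptlc2 (chr12:87388356-87388605, minus strand): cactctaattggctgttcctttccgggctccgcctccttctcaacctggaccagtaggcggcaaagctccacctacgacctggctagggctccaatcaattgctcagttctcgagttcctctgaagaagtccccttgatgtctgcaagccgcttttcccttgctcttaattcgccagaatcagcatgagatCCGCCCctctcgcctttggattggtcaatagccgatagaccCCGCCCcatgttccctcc

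The motifs were ACAAAG and ACAATG for SOX factors, CTGGNAC for MYRF, the E-box CAGCTG of OLIG2, the GC box GGGCGG of SP1, and TATAAA. The Ugt8a window, with a GC content of 76.8%, held the GC box at 3 positions, at 116, 112 and 18 bases before the start, the first pair overlapping. The GC box was present in 32.7% of all 32851 promoter windows of that length. The Gal3st1 window held ACAATG once, 184 bases before the start, as did 10.7% of all windows. The Aspa window was the poorest in G and C of the printed windows, at 38.8%, and held the OLIG2 E-box once (13% of all windows). It also held TATAAA at 174, 207 and 209 bases before the start, the last pair overlapping on opposite strands (12.4% of all windows). The Sptlc2 window held the GC box at 59 and 18 bases before the start. MYRF letters were in none of these windows and in 16.1% of all windows, and ACAAAG, in 16.5% of all windows, was in none of them either. These are matches of letters and not sites of binding.

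Among transcripts for making galactolipids, Ugt8a and Fa2h fell by more than 2-fold after ON-CR, and transcripts for the general steps of sphingolipid synthesis had smaller differences in the same direction that did not pass the test. The question was whether the lipid-making side of myelin differed between injured and sham nerves as a whole or in some of its steps. The mean of all 10 genes was lower after ON-CR, where 47.2% of all genes had a log2 fold change below 0. The median log2 fold change, on the log2(value + 1) scale, was -0.43 for the 10 genes and 0.03 for all genes. With each library scaled to its total these became -0.30 and 0.15, and no gene of the 10 changed direction, although the log2 fold changes of Sptlc1, Sptlc2, Sgms1 and Galc then became -0.11, -0.19, -0.07 and -0.10. Of the 10 genes, 2 (Ugt8a and Fa2h) passed an adjusted p of 0.05 or less by limma, adjusted over all 25755 genes, as lower. This call was made for 1.13% of all genes in the lower direction and 2.10% in either. With scaling to the total, 68.3% of the genes called over the whole table were higher, against 46.3% with the deposited scaling, and the same 2 of the 10 were called. At an unadjusted p of 0.05 or less, 6 of the 10 were lower, against 8.22% of all genes. For 9 of the 10 the groups were fully apart, all lower, against 11.0% of all genes in that direction and 21.6% in either. Among the 8084 genes with a mean value of at least 300, which every one of the 10 exceeded, the share was 21.0%. Of the same 8084 genes, 2.98% passed the adjusted p of 0.05 or less by limma as lower. The filter of an unadjusted p of 0.05 or less with a change of at least 2-fold passed the same 2 genes, against 1.49% of all genes in the lower direction and 4.66% in either. In bulk nerve, fewer oligodendrocytes, less RNA per oligodendrocyte and more RNA from other cells cannot be told apart. By staining, the study reports higher cellularity and a higher percentage of cells positive for OLIG2, a factor of the oligodendrocyte lineage, after ON-CR. A share of stained cells of that lineage is a measure unlike the RNA of myelin genes in bulk nerve. In these libraries Olig2 RNA had a mean of 291 in sham nerves and 285 in ON-CR nerves (log2 fold change -0.03, limma adjusted p = 0.952). How the staining relates to the values of the lipid genes was not tested.

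Ugt8a (ENSMUSG00000032854.12, chromosome 3 of GRCm38 from 125865271 to 125938619) encodes the galactosyltransferase that commits ceramide to myelin galactolipid. Its normalized value was 9580, 11214 and 7900 in sham mice 1, 2 and 3 against 5091, 3236 and 3510 in ON-CR mice 4, 5 and 6. The highest injured nerve thus stood below the lowest sham nerve, with ON-CR mouse 4 nearest to the sham range. The means were 9565 ± 1657 and 3946 ± 1001 (SD, n = 3 each), a 2.42-fold difference. The log2 fold change was -1.29 (standard error, SE, 0.18, 95% interval -1.70 to -0.88, limma adjusted p = 0.00733). The limma adjusted p rose to 0.0560 without sham mouse 2 and to 0.0968 without ON-CR mouse 6. Among the libraries low in airway markers, Ugt8a was at 9580 and 11214 in sham mice against 5091 in ON-CR mouse 4, and among those high in them at 7900 in sham mouse 3 against 3236 and 3510. ON-CR mouse 4 and sham mouse 3 each stand alone for their group there, and the part of airway transcripts was not tested.

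Fa2h (ENSMUSG00000033579.16, chromosome 8 from 111345135 to 111393824) encodes the hydroxylase that gives myelin galactolipids their 2-hydroxy fatty acids. It was at 2049, 2750 and 1740 in sham mice 1, 2 and 3 and at 1175, 802 and 895 in ON-CR mice 4, 5 and 6. The order of the mice within each group was the one seen for Ugt8a. The means of 2180 ± 517 and 957 ± 194 (SD, n = 3 each) gave a log2 fold change of -1.18 (SE 0.19, 95% interval -1.60 to -0.76, limma adjusted p = 0.0128). The limma adjusted p was 0.0621 without sham mouse 1, 0.0687 without sham mouse 2 and 0.128 without ON-CR mouse 6.

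Gal3st1 (ENSMUSG00000049721.14, chromosome 11 from 3983636 to 3999326) encodes the sulfotransferase that makes sulfatide. It was at 412, 436 and 327 in sham mice 1, 2 and 3 and at 281, 168 and 228 in ON-CR mice 4, 5 and 6. The groups did not overlap, but the distance between sham mouse 3 and ON-CR mouse 4 was smaller than the range within either group. Its log2 fold change of -0.81 (SE 0.21, 95% interval -1.27 to -0.35) had a limma adjusted p of 0.0827.

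**Figure D1:**
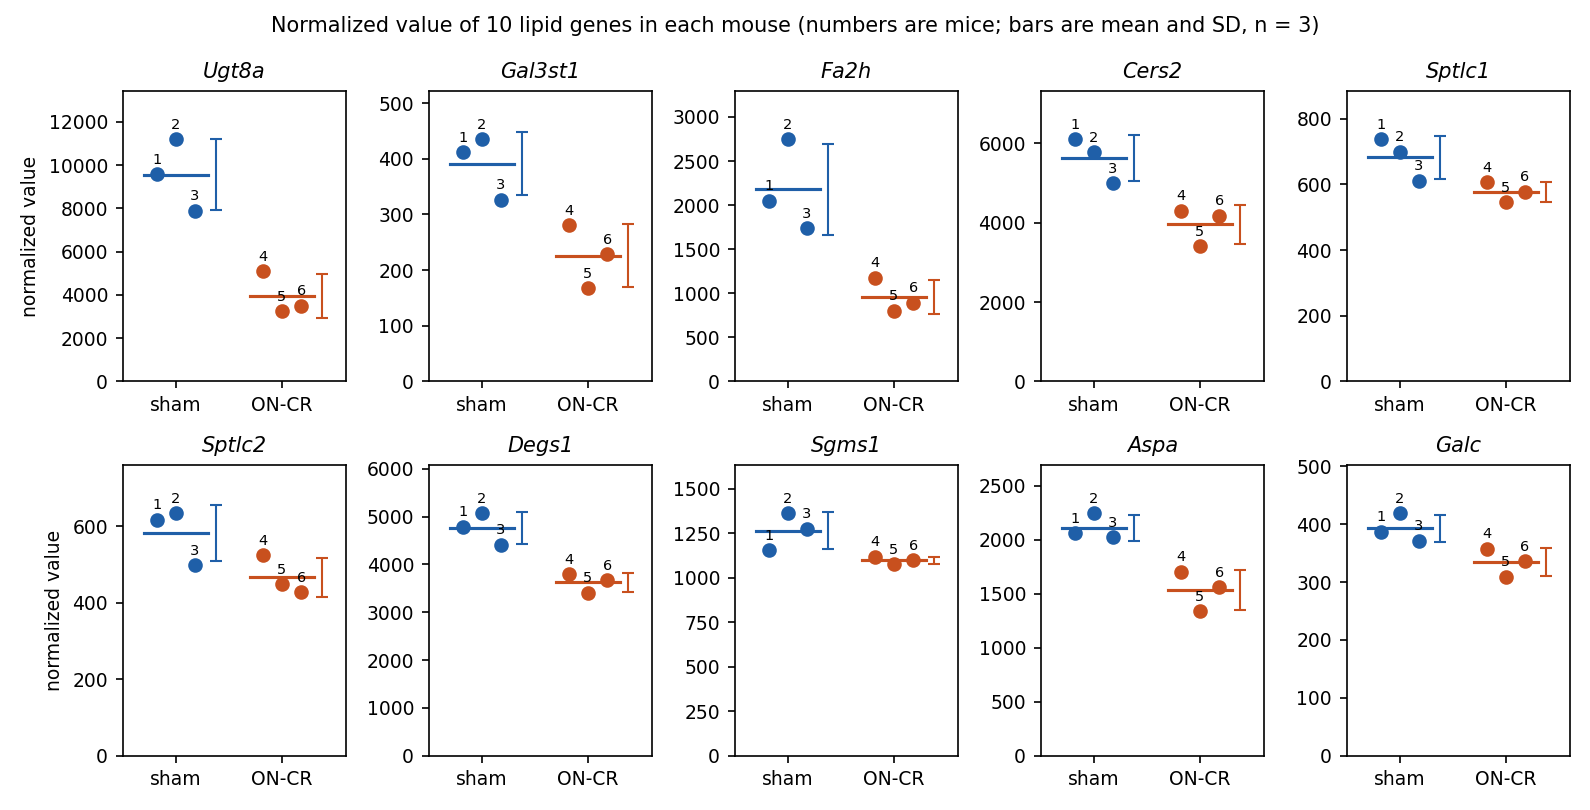
Normalized value of each of the 10 genes (vertical axes, each from 0) in each of the 6 mice, grouped as sham and ON-CR on the horizontal axes, with horizontal lines at the group means and vertical bars for 1 SD either side (n = 3). For Ugt8a the sham mice lie between 7900 and 11214 and the ON-CR mice between 3236 and 5091, whereas for Sptlc2 sham mouse 3 (499) lies below ON-CR mouse 4 (523).

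Of the 4 genes of ceramide synthesis, all 4 had lower means after ON-CR and none passed the adjusted threshold by limma, while 2 of them (Cers2 and Degs1) had an unadjusted p of 0.05 or less. Cers2 (ENSMUSG00000015714.11, chromosome 3 from 95314791 to 95323599), the ceramide synthase for very long acyl chains, was at 6110, 5780 and 4991 in sham nerves and at 4302, 3403 and 4177 in ON-CR nerves. Its log2 fold change was -0.51 (SE 0.13, limma adjusted p = 0.0796). Exons of 6330562C20Rik and Setdb1 on the other strand share 219 bases with those of Cers2, and their reads cannot be told apart if the counting ignored strand.

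Degs1 (ENSMUSG00000038633.5, chromosome 1 from 182275772 to 182282804), the desaturase of the last step to ceramide, was at 4792, 5072 and 4413 in sham nerves and at 3802, 3409 and 3668 in ON-CR nerves. The ON-CR values lay close together and all below the sham values, a log2 fold change of -0.39 (SE 0.11, limma adjusted p = 0.0985).

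The subunits of serine palmitoyltransferase differed least among the 4. Sptlc1 (ENSMUSG00000021468.8, chromosome 13 from 53332748 to 53377397) was at 739, 699 and 611 in sham nerves and at 606, 545 and 578 in ON-CR nerves, so that sham mouse 3 and ON-CR mouse 4 nearly met. Its log2 fold change was -0.24, with a 95% interval of -0.53 to 0.04 (limma adjusted p = 0.400). Sptlc2 (ENSMUSG00000021036.10, chromosome 12 from 87305058 to 87388355) was at 617, 634 and 499 in sham nerves and at 523, 448 and 428 in ON-CR nerves. It was the single gene of the 10 whose groups overlapped, and its log2 fold change of -0.32 had a 95% interval of -0.65 to 0.01 (limma adjusted p = 0.332). Intervals that reach 0 leave a fall of up to about these lower bounds possible at this number of mice.

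Sgms1 (ENSMUSG00000040451.18, chromosome 19 from 32122727 to 32389714), which diverts ceramide to sphingomyelin, had the smallest difference of the 10. It was at 1153, 1363 and 1275 in sham nerves and at 1119, 1077 and 1100 in ON-CR nerves. The groups did not overlap, yet sham mouse 1 stood just above ON-CR mouse 4, and the log2 fold change of -0.20 had a 95% interval of -0.45 to 0.05 (limma adjusted p = 0.435). Its exons share 10 bases with 2700046G09Rik on the other strand.

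Aspa (ENSMUSG00000020774.9, chromosome 11 from 73304992 to 73329596) encodes aspartoacylase, the oligodendrocyte enzyme that splits N-acetylaspartate from neurons and so supplies acetate. It was at 2057, 2244 and 2020 in sham nerves and at 1704, 1337 and 1561 in ON-CR nerves. The sham values lay close together and above all ON-CR values, and the log2 fold change was -0.46 (SE 0.12, 95% interval -0.73 to -0.19, limma adjusted p = 0.0891). Galc (ENSMUSG00000021003.10, chromosome 12 from 98202294 to 98259459), on the breakdown side, was at 387, 419 and 372 in sham nerves and at 358, 309 and 336 in ON-CR nerves. Its groups stood apart by less than the range of either, and its log2 fold change was -0.23 (95% interval -0.54 to 0.07, limma adjusted p = 0.462). Gm47439, on the other strand, shares 400 exon bases with Galc.

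**Figure D2:**
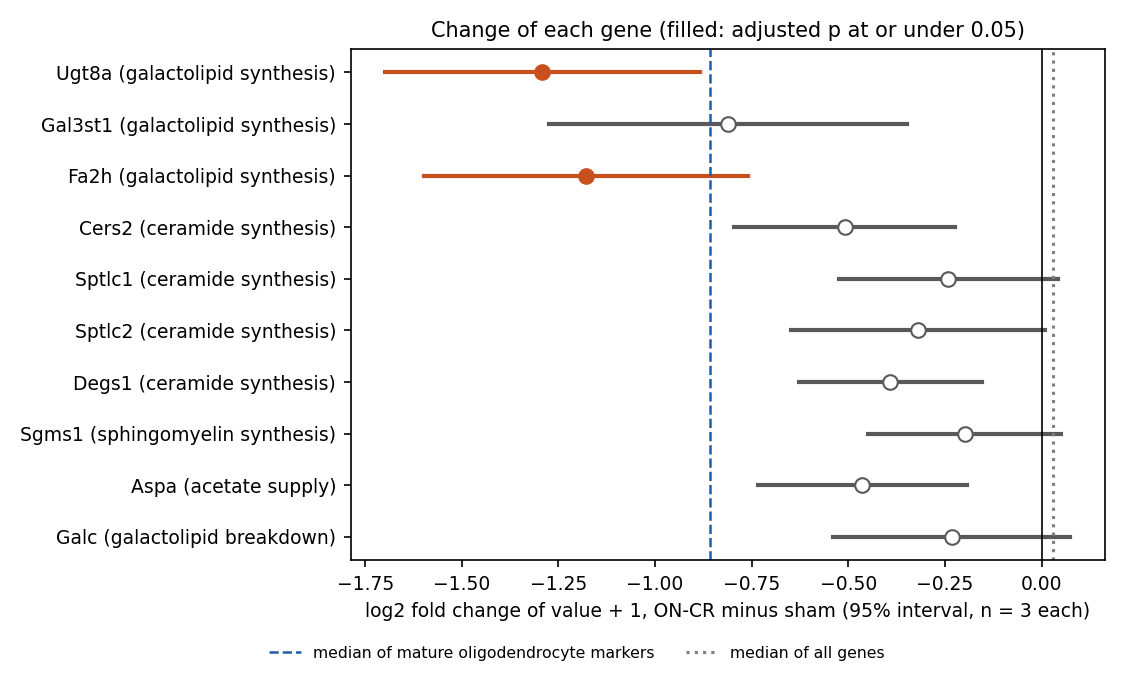
Log2 fold change of value + 1, ON-CR minus sham (horizontal axis), of each gene with its 95% interval from limma (n = 3 each), ordered by role on the vertical axis. Filled points are Ugt8a and Fa2h, at -1.29 and -1.18. The dashed line is the median of 15 mature oligodendrocyte markers (-0.86), the dotted line the median of all genes (0.03), and the intervals of Sptlc1, Sptlc2, Sgms1 and Galc include 0.

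The mice ranked alike across the genes. ON-CR mouse 4 had the highest value of the injured group for 10 of 10 genes, and ON-CR mouse 5 the lowest for 9, with Sptlc2 the exception, lowest in mouse 6. As a share of the sham mean, the median over the 10 genes was 80.4%, 67.5% and 74.2% in injured mice 4, 5 and 6. In the sham group, mouse 2 was highest for 8 genes and mouse 3 lowest for 9. ON-CR mouse 4 was nonetheless below all 3 sham mice for 9 genes, the exception again being Sptlc2. This mouse, the nearest to sham, is also the injured mouse with few airway transcripts and with both Xist and Ddx3y.

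Compared per kilobase of merged exons, Ugt8a was the most abundant of the 10 transcripts in 3 of 3 sham libraries and the third in 3 of 3 ON-CR libraries, behind Degs1 and Cers2. In sham mice Ugt8a stood at 2109 ± 365 per kilobase, Degs1 at 1837 ± 128 and Cers2 at 1531 ± 156 (SD, n = 3 each), so that the level of Ugt8a and that of Degs1 lay within 1 SD of each other as groups. After ON-CR, Ugt8a was at 870 ± 221, Degs1 at 1400 ± 77.1 and Cers2 at 1077 ± 133. Fa2h (725 ± 172 in sham mice) and Aspa (354 ± 20.1) followed in that order in every library. Below them, Sptlc1 and Gal3st1, both at 192 per kilobase in sham mice, did not differ beyond their spread. Sgms1 (120), Sptlc2 (71.8) and Galc (26.4) were the lowest in sham mice. Merged exons count all annotated isoforms, so a gene with long rare exons, such as Galc with 14879 bases, reads low on this scale.

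Most markers of mature oligodendrocytes fell as well, and the genes of lipid synthesis were compared with them inside each library, where scaling between libraries plays no part. Of 15 such markers 15 had lower means after ON-CR and 10 passed the adjusted threshold by limma, with a median log2 fold change of -0.86 and a range of -3.08 to -0.34. Their summed value was 1901510, 1723180 and 1340190 in sham nerves and 789205, 659564 and 703907 in ON-CR nerves. Among the markers called lower were Mbp, Mog, Mag, Mobp, Cnp, Ermn, Mal, Hapln2 and Gjb1. Mbp (-1.42) and Hapln2 (-3.08) had log2 fold changes below that of Ugt8a, and Mobp (-1.21) also below that of Fa2h. Of these 10 markers, 9 lost their call without ON-CR mouse 6 and 9 without sham mouse 2, and Hapln2 kept it in all 6 fits that left out 1 mouse.

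Relative to the mean of those 15 markers, Ugt8a and Fa2h were lower after ON-CR, and 7 of the other 8 genes were higher. The mean log2 fold change of the markers was -0.97, against a median of 0.03 for all genes. A gene that did not change would thus also be higher relative to them, and the share of all genes that were was not computed. Being higher on this scale is therefore not particular to the 7 genes. The log2 ratio of Ugt8a to the markers was -0.87, -0.84 and -0.94 in sham nerves and -1.03, -1.24 and -1.34 in ON-CR nerves, a difference of -0.32. That of Fa2h was -3.09, -2.87 and -3.12 in sham nerves and -3.15, -3.25 and -3.31 in ON-CR nerves, a difference of -0.21. Neither gene's groups overlapped, although sham mouse 3 and ON-CR mouse 4 nearly met for Fa2h. Gal3st1 stayed near the markers, its ratio differing by 0.16 with overlapping groups (exact two-sided permutation p = 0.2, n = 3 each). Sgms1 (0.77), Galc (0.74), Sptlc1 (0.73), Sptlc2 (0.65), Degs1 (0.58), Aspa (0.51) and Cers2 (0.46) were higher relative to the markers, without overlap. For these 7 genes, Ugt8a and Fa2h, the exact two-sided permutation p was 0.1, the smallest that 3 mice against 3 allow, and the design cannot reach 0.05. Set against the other markers without Hapln2, which fell most, the difference was -0.47 for Ugt8a, -0.36 for Fa2h and 0.01 for Gal3st1, a setting chosen after the data were seen. Without sham mouse 2 the difference for Fa2h was -0.13, and leaving out ON-CR mouse 4 gave 0.10 for Gal3st1, while leaving out ON-CR mouse 5 gave 0.25.

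**Figure D3:**
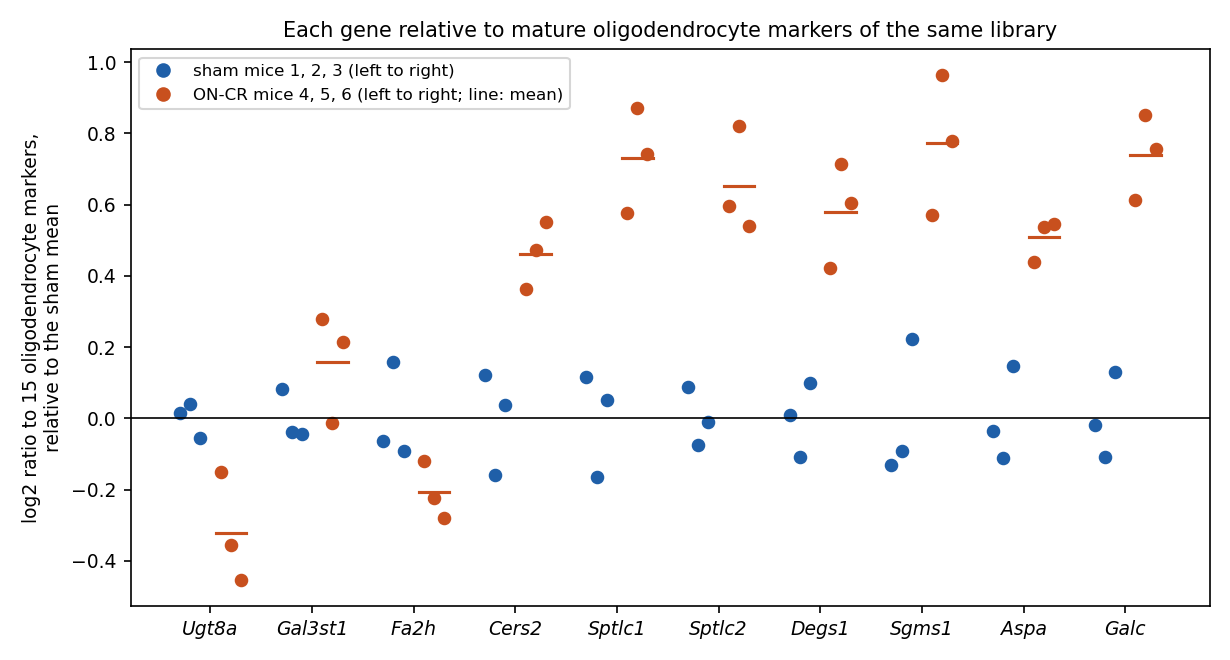
Log2 ratio of each gene to the mean of 15 mature oligodendrocyte markers of the same library (vertical axis, shown relative to the sham mean of each gene), with 1 point per mouse and a line at the ON-CR mean. Ugt8a (-0.32) and Fa2h (-0.21) lie below their sham mice, Gal3st1 (0.16) overlaps them, and the other 7 genes lie above by 0.46 to 0.77.

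Ratios between genes of the chain, chosen after the values were seen and so given without a test, were unequal in the same way. The value of Ugt8a over that of Galc, synthesis against breakdown of the same lipid, was 24.7, 26.8 and 21.2 in sham nerves and 14.2, 10.5 and 10.4 in ON-CR nerves. The ratio of Ugt8a to Cers2 was 1.57, 1.94 and 1.58 in sham nerves and 1.18, 0.951 and 0.840 in ON-CR nerves. Neither pair of groups overlapped. Gal3st1 over Ugt8a went the other way, from 0.0430, 0.0388 and 0.0414 to 0.0552, 0.0518 and 0.0651. Fa2h over Ugt8a overlapped between the groups, at 0.214 to 0.245 in sham nerves and 0.231 to 0.255 in ON-CR nerves. Ugt8a over Mbp, the major myelin basic protein gene, also overlapped (0.00739 to 0.0105 and 0.00841 to 0.0123).

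Around the 10 genes, a wider set of sphingolipid and galactolipid genes was read in 10 lists that together held 94 genes of the table, the 10 included. Beyond the 10, 7 of 84 genes were called lower and 1 higher by limma, with a median log2 fold change of -0.13, against 1.13% of all genes called lower and 0.971% called higher. With each library scaled to its total, 42 of the 84 had lower means and their median was 0.00, against 0.15 for all genes. The 7 called lower lost the call without sham mouse 2 and without ON-CR mouse 6, and Elovl1, Elovl5, Elovl7, S1pr1 and Gltp also lost it without sham mouse 1 or 3, with limma adjusted p up to 0.238. Those called lower served fatty acid elongation, lipid transport, acetate use and, for S1pr1, lipid signalling. Of 12 genes that supply very long chain fatty acids, 11 had lower means and 3 were called (median log2 fold change -0.20), and with scaling to the total 8 had lower means (median -0.07). The called genes were Elovl1 (log2 fold change -0.71, limma adjusted p = 0.0303), which elongates saturated chains toward those used by Cers2, Elovl7 (-0.71, limma adjusted p = 0.0210) and Elovl5 (-0.55, limma adjusted p = 0.0408), which elongates polyunsaturated chains.

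Elovl1 was at 4205, 4384 and 3606 in sham nerves and at 2644, 2058 and 2785 in ON-CR nerves. Of 5 ceramide and glycolipid transport genes, Mal and Gltp were called lower. Mal, a membrane protein of myelin that sorts with galactolipids and is also 1 of the 15 markers, was at 10478, 11234 and 9654 in sham nerves and 6131, 4988 and 5749 in ON-CR nerves (log2 fold change -0.90, limma adjusted p = 0.00527). Gltp, the glycolipid transfer protein gene, was at 8034, 8969 and 7004 in sham nerves and at 5794, 3945 and 5042 in ON-CR nerves (-0.71, limma adjusted p = 0.0468). For all 3 genes the groups stood apart.

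Of 9 genes that handle N-acetylaspartate, 8 had lower means and Acss2 was called lower. Acss2, which turns acetate into acetyl-CoA downstream of aspartoacylase, was at 1042, 1076 and 873 in sham nerves and at 526, 522 and 478 in ON-CR nerves (log2 fold change -0.97, limma adjusted p = 0.00561). The ON-CR values lay close together and well below the sham values, a larger difference than that of Aspa (-0.46) on the same scale.

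Of the sphingosine-1-phosphate receptors, S1pr3 rose and S1pr1 fell. S1pr3 was the single gene of the lists called higher, at 1574, 1382 and 1301 in sham nerves and 5234, 3880 and 5744 in ON-CR nerves, 349% of the sham mean (log2 fold change 1.79, limma adjusted p = 0.000624). It kept its call in all 6 fits that left out 1 mouse. S1pr1 was at 4548, 4599 and 3944 in sham nerves and at 3208, 3041 and 2540 in ON-CR nerves (-0.58, limma adjusted p = 0.0436). S1pr5, the receptor of this family found in oligodendrocytes and named here after its values were seen, was at 1323, 1861 and 1178 in sham nerves and at 974, 420 and 320 in ON-CR nerves (-1.49, limma adjusted p = 0.0605). Of the 16 genes of the sphingosine list in the table, 9 had lower and 7 higher means, and 7 lower and 9 higher means with each library scaled to its total.

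The remaining lists of sphingolipid metabolism held no gene called by limma. Of 17 sphingoid base and ceramide synthesis genes, 13 had lower means, with a median log2 fold change of -0.26 and 6 lower and 2 higher at an unadjusted p of 0.05 or less. The ceramide synthases in it went both ways: Cers5 (-0.52, limma adjusted p = 0.0783) stood with Cers2, and Cers4 (0.45, limma adjusted p = 0.140) and Cers6 (0.54, limma adjusted p = 0.218) were higher without overlap, all 3 named after their values were seen. Sphingomyelin synthesis and breakdown had 7 of 9 genes lower (median -0.17, 2 lower and 0 higher at an unadjusted p of 0.05 or less). Lysosomal galactolipid breakdown, the list of Galc, had 4 of 6 lower (median -0.16, 0 in either direction at that p). Ganglioside synthesis, the glucose-based branch that competes for ceramide, had 6 of 9 genes higher (median 0.18, 1 lower and 2 higher at that p). Ganglioside breakdown had 4 of 8 higher (median 0.02, 0 lower and 2 higher at that p). Of all genes 8.22% were lower at that p, and the share of all genes higher at that p was not computed. Whether the counts higher exceed that share is thus not known. With scaling to the total the medians of these 5 lists moved up, to -0.13 for sphingoid base and ceramide synthesis, -0.04 for sphingomyelin, -0.03 for lysosomal breakdown, 0.31 for ganglioside synthesis and 0.14 for ganglioside breakdown. The lower means were then 11 of 17, 5 of 9 and 4 of 6 in the first 3 lists, and the higher means 7 of 9 and 6 of 8 in the ganglioside lists.

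**Figure D4:**
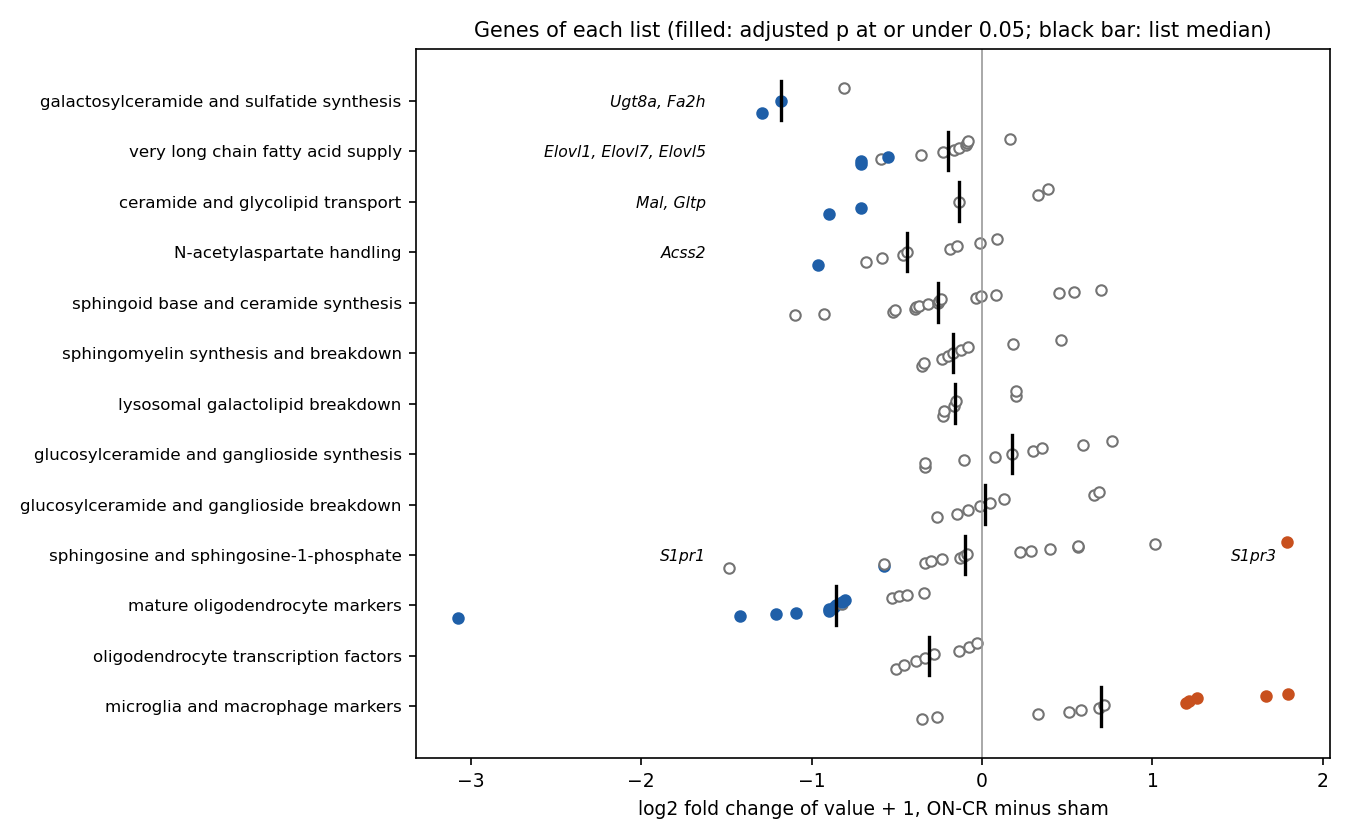
Log2 fold change of value + 1, ON-CR minus sham (horizontal axis), of each gene in 10 lipid lists and 3 cell type lists (vertical axis), with a black bar at each list median. Filled points passed an adjusted p of 0.05 or less by limma, blue lower and orange higher, and are named beside the lipid lists. The galactolipid list has the lowest median of the lipid lists (-1.18), and S1pr3 (1.79) stands alone among the lipid genes called higher.

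Among the 14426 other genes with a mean value of at least 50, those whose profile over the 6 libraries was most like the mean profile of Ugt8a, Gal3st1 and Fa2h were Ttyh2 (Pearson r 0.999), Mad1l1 (0.999), Epb41l3 (0.997), Slc48a1 (0.996) and Cnp (0.996). The 6 libraries fall into 2 groups, so r is given as a description, with no p. Ttyh2, the first of them, was at 20382, 23474 and 17791 in sham nerves and at 13731, 8830 and 10502 in ON-CR nerves. Of the 10 genes themselves, Sgms1 was the least like that profile (r 0.829).

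Transcription factors of the oligodendrocyte lineage, which control myelin genes, had lower means for 8 of 8, a median log2 fold change of -0.31 and no call by limma. Of these factors 3 were lower at an unadjusted p of 0.05 or less, against 8.22% of all genes. With libraries scaled to their totals 6 of these 8 were lower. A list of 9 markers covered oligodendrocyte precursors and newly forming oligodendrocytes. Of these 9 markers 5 were lower, with Bcas1 called lower (log2 fold change -0.86) and Lhfpl3 and Sox6 called higher by limma. Pdgfra had a log2 fold change of -0.29 (limma adjusted p = 0.294). Schwann cells also make galactolipid. Of 11 Schwann cell markers 4 were higher, with Egr2 called by limma. Of 12 microglia and macrophage markers 10 were higher and 5 (Aif1, Cd68, Trem2, Tyrobp and C1qa) were called, their summed value being 21287 to 28516 in sham nerves and 28732 to 48568 in ON-CR nerves. Of 10 astrocyte markers 6 were higher, S100b was called lower, and Gfap had a log2 fold change of 0.64 (limma adjusted p = 0.0859). Of the markers called in these lists, Cd68 alone kept its call without ON-CR mouse 6, and Cd68 and Trem2 alone without sham mouse 2. Whether a changed share of these cells moved the values of the lipid genes was not tested.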

How the data were processed

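RNA from optic nerves of 3 sham and 3 ON-CR mice was sequenced by the authors from SMARTer libraries. Per the study's methods, the authors used Illumina DRAGEN for alignment and quantification, Ensembl models of the mouse build mm10 for annotation, and Partek Flow 10.0 for median normalization. The deposited values are a normalized signal per gene, that is, counts divided by 1 factor per library. Dividing by the value of 1 read gave whole reads (within 0.02) for 70.3% to 72.9% of values up to 50 reads, so the values were not treated as counts and no count model was run. Whether the counting used strand is not given in the sources used here.

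A pseudocount of 1 was added, and the log2 values were compared in R 4.3.3 by limma 3.58.1 with its trend option, after this procedure had been tested on simulated data. The simulation gave every gene the same dispersion between replicates, so it does not show how the trend option performs on these libraries. P-values were adjusted over 25755 genes by the Benjamini-Hochberg method. Exact permutation tests used SciPy 1.17.1 in Python 3.11.15. Mice were grouped by their labels, all 6 were used, and replicates differed by more than sampling noise (chi-square per degree of freedom 15.2 to 42.9), so each counted as 1. The log2(value + 1) scale understates changes of low values. Positions and merged exon lengths are from GENCODE vM21 (GRCm38, the assembly named mm10), and promoters from RefSeq.

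The 10 genes, the lists, and the tests were chosen with earlier results of these data known. Named were the 10 genes, every gene of the 10 lipid lists with an adjusted p of 0.05 or less, genes called in the cell type lists with their defining markers, the 5 genes most like the galactolipid profile, and Xist and Ddx3y. S1pr5, Cers4, Cers5, Cers6, Olig2 and the gene ratios were chosen after their values were seen. Alternatives were pseudocounts of 0.1 and 2, a mean value of at least 10, TMM, upper-quartile and total scaling, a robust fit, sample quality weights, no trend, and leaving out each mouse. Marker ratios without Hapln2 or to the marker median were added after the data were seen. Results for some marker genes are not reported here.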

Additional observations from a re-analysis of the deposited data

How the results depend on the processing

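The direction of each of the 10 genes held in all 15 alternatives to the limma fit, and the direction of each ratio to the oligodendrocyte markers in all 10 alternatives. The adjusted p by limma ranged from 0.00281 to 0.171 for Ugt8a and from 0.00945 to 0.202 for Fa2h, and the other 8 genes passed in none. Without the mean-variance trend, 0 of the 10 genes and 7 of all genes were called, against 2 and 540. Leaving out 1 mouse gave 0 to 2 of the 10 genes and 67 to 854 of all genes. It was 0 of the 10 without sham mouse 2 and without ON-CR mouse 6, and 1, Ugt8a, without sham mouse 1. The cause was not tested. Over all genes, leaving out sham mice 1, 2 and 3 gave 192, 123 and 258 calls, and ON-CR mice 4, 5 and 6 gave 462, 854 and 67. The other settings, which kept all 6 mice and the trend, gave 484 to 791 calls and the same 2 of the 10 genes. Scaling to the total gave 195 genes lower and 421 higher, against 290 and 250. The 2-fold filter passed 821 genes at a mean value of at least 10, against 1201. With 3 mice a group, the intervals of Sptlc1, Sptlc2, Sgms1 and Galc included 0. No paired analysis was possible because mice 1 to 3 and 4 to 6 share no number.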

Other observations

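Transcripts of cells other than oligodendrocytes and microglia were mostly uncalled by limma. At an unadjusted p of 0.05 or less, 8.22% of all genes were lower. All 12 neuron markers had higher means after ON-CR, 0 were called and 0 had an unadjusted p of 0.05 or less. Their summed value was 16609 in ON-CR mouse 5, but 3442 and 6723 in ON-CR mice 4 and 6 against 4555 to 8057 in sham mice. Of 10 fibroblast and meninges markers 8 had lower means, with 0 called and 5 lower at an unadjusted p of 0.05 or less, and of 9 endothelial markers 7 had lower means, with 0 called and 1 lower at that p (5 of 9 with scaling to the total). Airway epithelium markers had 8 of 11 higher means, with 0 called and 0 at that p. Their member Bpifa1, a secreted protein of the nasal and upper airway lining, was at 22.3, 0 and 7568 in sham mice 1, 2 and 3 and at 0, 4579 and 5894 in ON-CR mice 4, 5 and 6. Plasma cell markers had 6 of 8 higher means, with 0 called and 1 lower at that p, and keratinocyte markers 4 of 8, with 0 called and 0 at that p. Of 5 sex-linked genes, Xist was called higher, and the other 4 had lower means without a call, each with an unadjusted p of 0.05 or less.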
